A study of Mus musculus with 6 samples.

Results

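The serotonin receptor genes examined here were 10 named rows of the count tables, Htr1a, Htr1b, Htr1d, Htr1f, Htr2a, Htr2c, Htr3a, Htr4, Htr5a and Htr7, out of 32531 gene rows. They were chosen by name, and 10 of 10 were found in all 6 tables. The tables came from thalamus of adult mice of the Slc17a6-TRAP line JX883, which carries the ribosomal protein Rpl10a fused to EGFP. All animals were untreated controls, so the tag was shared by every library, and no untagged mice were analysed here. The IP group held 3 libraries of RNA immunopurified with tagged ribosomes, and the Input group 3 libraries of the thalamic starting material, with replicate numbers 1 to 3 in each. The labels give Slc17a6, the vesicular glutamate transporter VGLUT2, as the gene behind the line. They do not give the age in weeks, the sex, the number of animals behind a library, or whether replicates are separate animals. The p-values therefore cover no more than the scatter among these libraries, part of which could be technical. The comparison asked which serotonin receptor transcripts were on the ribosomes of tagged thalamic neurons, and at what level relative to Input.

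Serotonin reaches the thalamus through axons of the raphe nuclei and acts there through several receptor families. Receptors of the Htr1 and Htr5 families couple to Gi/o proteins, which lower cyclic AMP and open potassium channels. The Htr2 family couples to Gq/11 and phospholipase C, Htr4, Htr6 and Htr7 couple to Gs and raise cyclic AMP, and Htr3a is a subunit of a cation channel opened by serotonin. Thalamic relay neurons and the midline nuclei are known as sites of such modulation.

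The libraries held between 44081149 and 54421395 gene reads, and 3 reads corresponded to between 0.0551 and 0.0681 CPM, the reads of a gene scaled to a common library size. Slc17a6 itself was higher in IP in each pair. Its log2 difference was 1.27 ± 0.68 (SE) on group alone (edgeR adjusted p = 0.206), and 1.52 ± 0.19 in a fit with the replicate number as a block (edgeR adjusted p = 0.000246). On group alone it passed without Input replicate 1, at 2.43 (edgeR adjusted p = 0.0161), and was 0.56 without IP replicate 1. A list of 15 thalamic glutamatergic markers summed to 13146, 9029 and 8070 CPM in IP replicates 1, 2 and 3, against 8680, 5365 and 2993 CPM in Input. Of these 15 markers 7 were called higher, against 9.60% of all tested genes. Input replicate 3 stood apart from the other Input libraries, with 26.3 times their mean for 10 choroid plexus and ependymal markers and 4.08 times for 10 striatal markers. Of 10 oligodendrocyte, 10 astrocyte and 10 microglia markers 10, 9 and 9 were called lower in IP, against 15.6% of all tested genes. The median log2 fold changes of these lists were -4.49, -3.86 and -4.19. Each marker of these lists had reads in both groups. Such values are shares of the RNA in a library and do not count cells.

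Htr1d, Htr2c and Htr7 were higher in IP than in Input in 3 of 3 pairs, and Htr1d passed the test over all genes, at 3.52 times its Input level. Htr1a, Htr2a and Htr3a were lower in IP in 3 of 3 pairs. In edgeR none of them passed without the replicate block, and only Htr1a passed with it. Htr3a was tested only because of its Input reads, so nothing is read from its direction. Htr5a was at nearly the same level in both groups, and Htr1b, Htr1f and Htr4 differed in direction between pairs. For scale, 30.3% of all tested genes were higher and 33.7% lower in 3 of 3 pairs.

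In the edgeR quasi-likelihood test on group, 1 of the 10 receptor genes was called higher (Htr1d) and 0 lower at an adjusted p under 0.05, against 9.60% of 16496 tested genes called higher and 15.6% called lower. With the replicate number as a block, 3 were called higher (Htr1d, Htr2c and Htr7) and 1 lower (Htr1a), against 15.9% and 19.2% of all tested genes. DESeq2 without the block called the same 3 higher and 0 lower, against 12.7% and 19.8% of all genes, and limma-voom called Htr1d higher and 0 lower, against 10.6% and 16.5%. At an unadjusted p under 0.05 in edgeR, Htr2c and Htr7 joined Htr1d among the higher ones. Htr3a was also under it, on the lower side, but was tested only because of its Input reads, so nothing is read from that p. At these shares of called genes in the background, the counts by themselves set the receptor genes apart in neither direction. The median log2 fold change of the 10 genes was -0.46, and that of all tested genes -0.04. All 10 passed the filter on low counts, but Htr3a did so through the Input libraries alone and Htr4 with 1 IP library over the minimum.

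**Figure D1:**
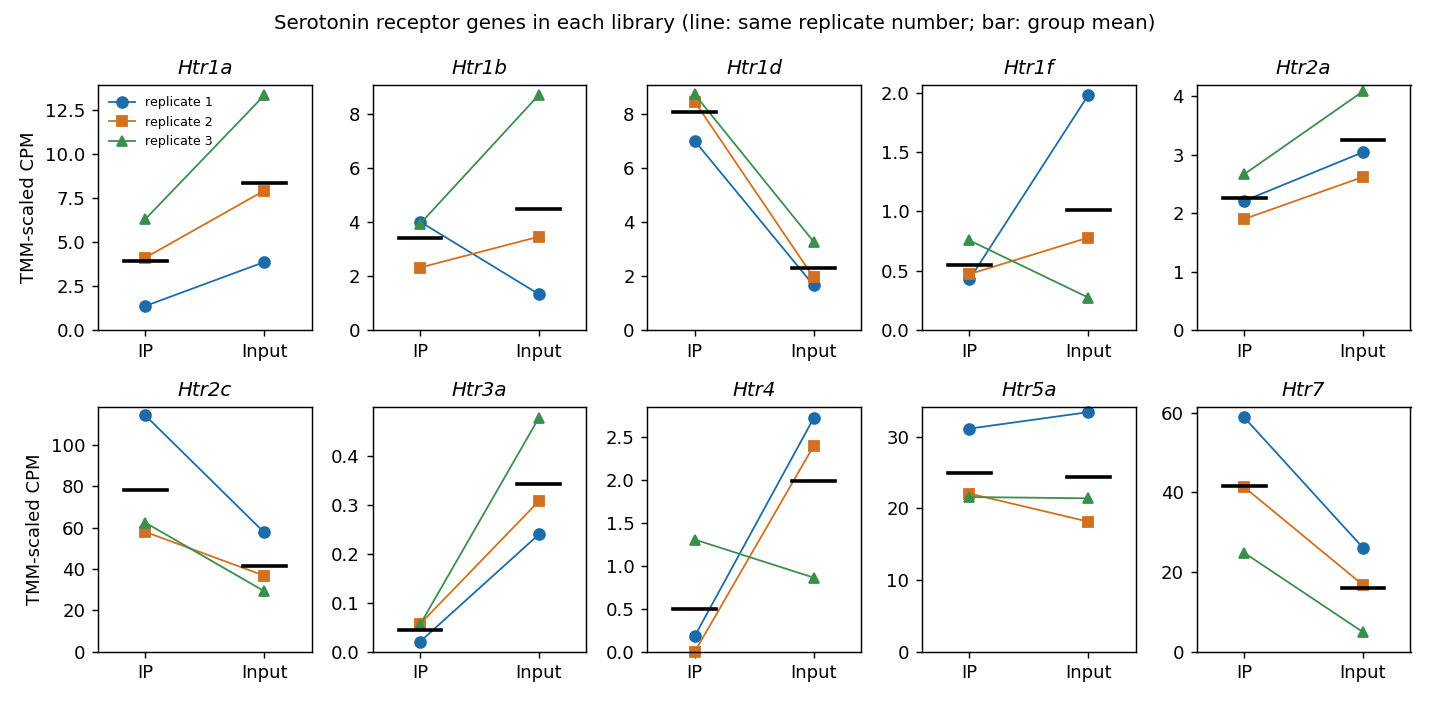
TMM-scaled CPM of each serotonin receptor gene in the IP and Input libraries, with its own linear scale per gene. Lines join libraries with the same replicate number and black bars are means of 3 libraries. The IP values of Htr1d and Htr2c lie above all Input values, and those of Htr3a below them.

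Htr1d encodes a Gi/o-coupled receptor that is found on axon terminals and is a target of the triptan migraine drugs. It had 345, 449 and 474 reads in IP replicates 1, 2 and 3, against 76, 95 and 144 reads in Input. After TMM scaling these were 7.0, 8.45 and 8.72 CPM in IP and 1.65, 1.94 and 3.27 CPM in Input, so the lowest IP library lay above the highest Input library. Such a gap upwards was found for 19.9% of all tested genes. Its log2 fold change was 1.81 ± 0.42 (SE; edgeR adjusted p = 0.0147), higher than that of 98.9% of tested genes, and the log2 ratios within pairs were 2.08, 2.12 and 1.41. With the replicate block it was 1.87 ± 0.42 (edgeR adjusted p = 0.00636), and DESeq2 gave an adjusted p of 0.000164. Its call ended without IP replicate 2, IP replicate 3 or Input replicate 2 (edgeR adjusted p = 0.0544, 0.0510 and 0.0598), while the log2 fold change stayed between 1.63 and 2.17 in every fit that left out libraries. Without both libraries of replicate 1 or of replicate 2 the edgeR adjusted p was 0.0614 and 0.179, and the blocked call ended without replicate 2 (edgeR adjusted p = 0.0643). The gene lies on chromosome 4 from 136423524 to 136444398 on the plus strand (GRCm38, the assembly of mm10).

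Htr5a encodes a Gi/o-coupled receptor with few known drugs. It had 31.1, 22.1 and 21.6 CPM in IP and 33.4, 18.2 and 21.4 CPM in Input, so replicate 1 was highest in both groups and the groups overlapped. The log2 fold change was 0.04 ± 0.29 (edgeR adjusted p = 0.945), with a 95% interval from -0.62 to 0.69, or from -0.40 to 0.53 with the replicate block. A difference of 2 times, which is log2 1, lay outside both intervals. The sign of this value near 0 changed with the scaling.

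Htr1a encodes the Gi/o-coupled autoreceptor of raphe neurons, which is also found on hippocampal and cortical neurons. It had 1.36, 4.10 and 6.29 CPM in IP and 3.85, 7.90 and 13.3 CPM in Input, with the lowest value in replicate 1 and the highest in replicate 3 of both groups. IP was at 0.353, 0.519 and 0.473 times Input in the 3 pairs. The log2 fold change was -1.09 ± 0.63 on group alone (edgeR adjusted p = 0.238), and the blocked value of -1.17 ± 0.38 passed (edgeR adjusted p = 0.0339). The blocked call ended without replicate 1 or replicate 2 (edgeR adjusted p = 0.142 and 0.133). A list of 11 cortical and hippocampal excitatory markers summed to 1580, 1335 and 1383 CPM in IP and 1159, 1115 and 2063 CPM in Input, highest in the Input library where Htr1a was highest. In IP it was highest in replicate 1, where Htr1a was lowest, and its sums were higher in IP in pairs 1 and 2. On group alone 0 of its 10 tested markers were called higher and 0 lower. The part of this list in the Htr1a difference was not tested. Without Input replicate 3 the log2 fold change of Htr1a on group alone was -0.57.

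Htr1b encodes a Gi/o-coupled terminal receptor, abundant in striatal projection neurons. It had 4.02, 2.31 and 3.94 CPM in IP and 1.33, 3.46 and 8.72 CPM in Input, and IP was higher in pair 1 but lower in pairs 2 and 3. Its log2 fold change was -0.40 ± 0.66 (edgeR adjusted p = 0.706), and 0.53 without Input replicate 3. The 10 striatal markers summed to 269.9, 221.8 and 327.2 CPM in IP and to 234.5, 359.5 and 1211 CPM in Input, in the same order over the Input libraries as Htr1b. Of these markers 1 of 10 was called lower, against 15.6% of all tested genes. Their part was not tested. The antisense gene D430036J16Rik shares 3024 bases of exon with Htr1b, so without a known strand setting the Htr1b count is uncertain.

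Htr1f encodes a further Gi/o-coupled receptor that triptans bind. It had 21, 25 and 41 reads in IP and 91, 38 and 12 reads in Input, and the IP values lay within the Input range. Its log2 difference was -0.87 ± 0.89 (edgeR adjusted p = 0.519), and 0.071 without Input replicate 1.

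Htr2c encodes a Gq/11-coupled receptor whose messenger RNA is edited by ADAR enzymes and which is also abundant in choroid plexus epithelium. More reads lay behind it than behind any other of the 10 genes, with 5639, 3082 and 3395 in IP and 2655, 1797 and 1290 in Input. In CPM these were 114.3, 58.0 and 62.4 in IP and 57.7, 36.8 and 29.3 in Input. The lowest IP value lay just above the highest Input value, a gap of less than 1 CPM. Pair ratios were 1.98, 1.58 and 2.13 times. On group alone the log2 fold change was 0.92 ± 0.34 (edgeR adjusted p = 0.0785), and the block gave 0.91 ± 0.17 (edgeR adjusted p = 0.00259). The blocked call held without replicate 1, 2 or 3, with log2 fold changes between 0.83 and 1.03. Without the block Htr2c passed by DESeq2 (adjusted p = 0.0298), and in edgeR when Input replicate 1 or both libraries of replicate 1 were left out (adjusted p = 0.0316 and 0.0318), while without IP replicate 1 the log2 fold change was 0.56. The 10 choroid plexus and ependymal markers summed to 5.15, 6.32 and 49.1 CPM in IP and to 47.6, 47.2 and 1245 CPM in Input. Ttr alone gave 35.6 CPM of the sum in IP replicate 3 and 1130 CPM of that in Input replicate 3. Input replicate 3, with the highest Input sum, had the lowest Htr2c level of the Input libraries. IP replicate 3, with the highest IP sum, had the middle one of the IP libraries. Of the 8 of these markers that were tested 3 were called lower, against 15.6% of all tested genes. The part of these markers in the Htr2c difference was not tested. Htr2c lies on chromosome X from 146962513 to 147197277 on the plus strand.

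Htr2a encodes the Gq/11-coupled receptor that classical psychedelics act on. It had 2.21, 1.90 and 2.67 CPM in IP and 3.04, 2.62 and 4.09 CPM in Input, where the highest IP value just passed the lowest Input value. Pair ratios were between 0.652 and 0.726, and the group difference was log2 -0.52 ± 0.47 (edgeR adjusted p = 0.459, or 0.510 with the block).

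Htr7 encodes a Gs-coupled receptor known from the midline and intralaminar thalamus. It had 2901, 2197 and 1350 reads in IP and 1200, 818 and 216 reads in Input. In CPM these were 58.8, 41.3 and 24.8 in IP and 26.1, 16.7 and 4.90 in Input, so the groups overlapped through IP replicate 3 and Input replicate 1. Within each pair IP was higher, by 2.25, 2.47 and 5.06 times. On group alone the log2 difference of 1.39 ± 0.55 missed the threshold (edgeR adjusted p = 0.0974), and the blocked value of 1.59 ± 0.26 passed it (edgeR adjusted p = 0.00108). The blocked call held without replicate 1, 2 or 3, with log2 fold changes between 1.25 and 1.82. Without the block Htr7 passed when Input replicate 1 or both libraries of replicate 3 were left out (edgeR adjusted p = 0.0387 and 0.0376). Replicate 1 was highest and replicate 3 lowest in both groups, and the summed thalamic glutamatergic markers had the same order, with IP to Input ratios of 1.51, 1.68 and 2.70 in pairs 1, 2 and 3. In IP that order rested on Slc17a6, which alone gave 6489, 2193 and 2200 CPM of sums of 13146, 9029 and 8070 CPM. Tcf7l2, of the same list, was highest in replicate 2 of both groups, with 2028, 2722 and 2205 CPM in IP and 1110, 1341 and 685 CPM in Input. The part of these markers in the Htr7 difference was not tested. Htr7 lies on chromosome 19 from 35958734 to 36057507 on the minus strand.

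Htr4 encodes a Gs-coupled receptor of striatal, hippocampal and habenular neurons. It had 9, 0 and 71 reads in IP and 125, 117 and 38 reads in Input. The 0 reads in IP replicate 2 allow up to 0.0576 CPM of the library's total, so Htr4 was far lower in IP in pairs 1 and 2 and 1.51 times higher in pair 3. Its log2 fold change was -2.0 ± 1.34 (edgeR adjusted p = 0.311), and -4.78 without both libraries of replicate 3 (edgeR adjusted p = 0.0370). With the block it was -3.47 (edgeR adjusted p = 0.154), and DESeq2 with the block called it lower, at -3.70 (adjusted p = 0.00775). Htr4 passed the filter on low counts through its Input libraries, with 1 IP library over the minimum, so nothing is read from these calls. The 10 GABAergic neuron markers summed to 127.6, 169.5 and 228.6 CPM in IP and to 1010, 1025 and 1435 CPM in Input. Of these 10 markers 7 were called lower, against 15.6% of all tested genes. IP replicate 3, which held most of the Htr4 reads, was highest of the IP libraries for these markers and for the choroid plexus list, mostly through Ttr. In Input, replicate 3 was also highest for both lists but lowest for Htr4. A list of 10 habenula markers summed to 349.3, 471.9 and 335.3 CPM in IP, in another order than Htr4, and to 458.8, 359.1 and 216.8 CPM in Input, in the order of Htr4. Most of the IP sums was Calb2, which is also on the thalamic list. Without Calb2 the other 9 markers summed to 73.2, 59.8 and 63.0 CPM in IP and to 406.3, 242.2 and 130.9 CPM in Input. The 10 striatal markers summed to 269.9, 221.8 and 327.2 CPM in IP, in the order of Htr4. In Input they summed to 234.5, 359.5 and 1211 CPM, in the opposite order to Htr4. The part of these lists in the Htr4 difference was not tested.

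Htr3a encodes the channel subunit that marks a class of cortical interneurons. It had 1, 3 and 3 reads in IP and 11, 15 and 21 reads in Input, so every IP library was at or under the floor of 3 reads. Over the 3 libraries of each group the ratio of IP to Input reads, scaled by library totals, was 12.7%, with an exact 95% interval from 4.86% to 28.4% that covers counting error only. Htr3a was the only one of the 10 genes whose IP values lay below all Input values, against 25.0% of all tested genes. Because it passed the filter on low counts through Input alone, nothing is read from this gap. Its edgeR adjusted p was 0.0692 on group alone and 0.166 with the block.

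**Figure D2:**
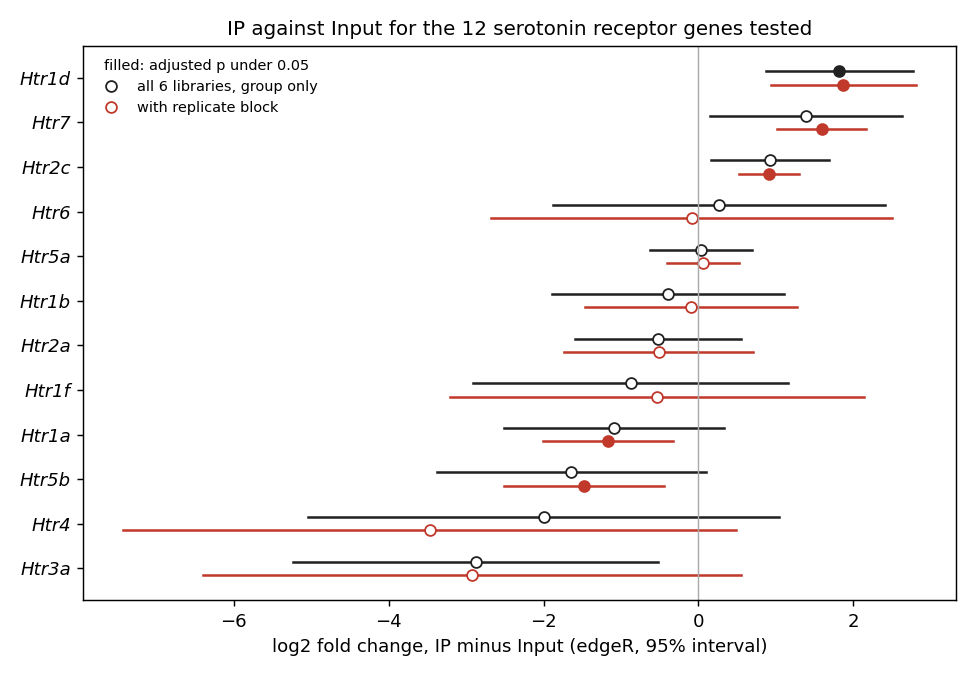
Log2 fold change of IP minus Input with its 95% interval for the 12 serotonin receptor genes tested, from edgeR on group alone (black) and with the replicate block (red). Filled points passed an adjusted p of 0.05, and Htr1d is filled in both fits.

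The upstream sequences of Htr1d, Htr2c and Htr7 are given because these were the 3 of the 10 receptor genes higher in IP in every pair. Each is from RefSeq (GRCm38.p6), reads 5′ to 3′ on the gene's strand and ends before the outermost start site that either RefSeq or GENCODE M21 places there. The windows are chr4:136423274-136423523 for Htr1d, chrX:146962263-146962512 for Htr2c and chr19:36057508-36057610 for Htr7. Capitals mark a GC box (GGGCGG) or a CCAAT box (CCAAT) on either strand.
Htr1d: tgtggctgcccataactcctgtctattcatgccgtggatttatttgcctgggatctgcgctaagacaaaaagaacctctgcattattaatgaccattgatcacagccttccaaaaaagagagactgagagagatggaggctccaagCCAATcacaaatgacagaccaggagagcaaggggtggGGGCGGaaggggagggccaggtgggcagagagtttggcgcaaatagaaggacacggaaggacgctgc
Htr2c: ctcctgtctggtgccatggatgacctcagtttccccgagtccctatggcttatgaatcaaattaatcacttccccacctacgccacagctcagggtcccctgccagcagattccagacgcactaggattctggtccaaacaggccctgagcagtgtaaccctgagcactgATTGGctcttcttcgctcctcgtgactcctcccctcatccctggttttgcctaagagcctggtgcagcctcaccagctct
Htr7: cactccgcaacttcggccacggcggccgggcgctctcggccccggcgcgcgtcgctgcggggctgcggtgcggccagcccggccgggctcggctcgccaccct

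The Htr1d window held 1 GC box and 1 CCAAT box, and the Htr2c window 1 CCAAT box, read on the opposite strand. Of 32851 windows of 250 bases, 32.7% held a GC box and 33.8% a CCAAT box. The TATA box (TATAAA), the cyclic AMP response core (TGACG), the LIM-homeodomain core (TAATTA) and the TCF/LEF site (ATCAAAG) were not found in these letters of the 3 windows. Of all windows of 250 bases, 12.4%, 17.8%, 4.84% and 3.21% held them. For windows of 103 bases, the length of the Htr7 window, the shares were 5.38%, 5.49%, 2.21% and 1.37%. Those windows were the first 103 bases of each window of 250, the part farthest from its start site. The Htr7 window instead ends at the outermost start site, so its comparisons are with windows placed otherwise. The Htr7 window, of 103 bases, was 82.5% G or C, more than 99.2% of windows of its length, and held 19 CpG pairs against a median of 2. Neither a GC box nor a CCAAT box was found in its letters, and 10.8% and 13.9% of windows of that length held one. The Htr1d and Htr2c windows were 51.6% and 55.6% G or C, near the median of 52.4%.

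The levels of different genes were set side by side per kilobase (kb) of exon, in TMM-scaled CPM per kb with lengths from GENCODE M21. In IP the order was Htr7 at 12.3 ± 5.0, Htr2c at 8.39 ± 3.36, Htr5a at 4.64 ± 1.0 and Htr1d at 2.52 ± 0.289 CPM per kb (SD, n = 3 each). Below these came Htr1a at 0.873, Htr1b at 0.724, Htr2a at 0.403, Htr1f at 0.213, Htr4 at 0.101 and Htr3a at 0.0211 CPM per kb. Neighbours in this order overlapped for Htr7 and Htr2c, Htr1a and Htr1b, Htr1f and Htr4, and Htr4 and Htr3a, and the others did not. In Input, Htr7, Htr5a and Htr2c were at 4.68 ± 3.12, 4.53 ± 1.5 and 4.42 ± 1.58 CPM per kb with overlapping libraries, and Htr1d was sixth, at 0.715 ± 0.269. Htr7 and Htr2c made up 40.7% and 27.8% of the summed mean level per kb of the 10 genes in IP, against 25.0% and 23.7% in Input. Htr1d made up 8.35% in IP and 3.82% in Input, and Htr1a 2.90% in IP and 9.96% in Input. In IP, Htr7 was at a higher level per kb than 76.2% of 14581 tested genes with a length, Htr2c than 68.6% and Htr3a than 2.54%. The order of Htr7, Htr2c and Htr5a and their shares depended on the length used. With the longest transcript Htr2c came first in both groups, at 16 CPM per kb in IP and 8.45 in Input, and Htr7 was at 13.2 in IP and 5.04 in Input. With the longest coding length Htr2c made up 45.3% of the summed level in IP and 36.7% in Input, Htr5a 18.6% in IP and 27.8% in Input, and Htr7 23.6% in IP and 13.8% in Input.

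**Figure D3:**
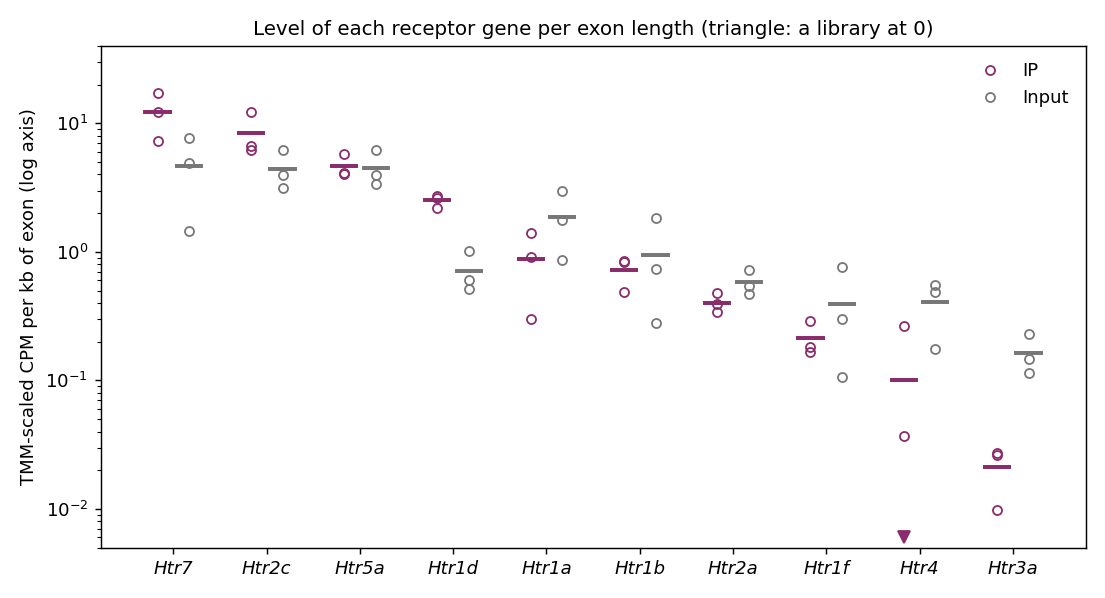
TMM-scaled CPM per kb of exon on a log axis for the 10 receptor genes, ordered by their IP mean. Circles are libraries, bars are means of 3 libraries, and the triangle marks the IP library in which Htr4 had 0 reads.

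The tables held 14 serotonin receptor genes, 4 of them beyond the 10. Htr5b, a Gi/o-type receptor gene that rodents express in the habenula, had 4.97, 1.35 and 1.64 CPM in IP and 16.3, 6.22 and 2.29 CPM in Input. It was lower in IP in 3 of 3 pairs, with a log2 fold change of -1.64 ± 0.77 (edgeR adjusted p = 0.151), or -1.48 ± 0.46 in the blocked fit (edgeR adjusted p = 0.0302). The blocked call ended without replicate 1 or replicate 2 (edgeR adjusted p = 0.294 and 0.217). On group alone it was -0.68 without Input replicate 1 and -2.45 without IP replicate 1. The 10 habenula markers summed to 349.3, 471.9 and 335.3 CPM in IP and to 458.8, 359.1 and 216.8 CPM in Input, with the order of the Input libraries that Htr5b had. Of these 10 markers 1 was called higher and 5 lower, against 9.60% and 15.6% of all tested genes. Without Calb2, which is also on the thalamic list, the other 9 summed to 73.2, 59.8 and 63.0 CPM in IP and to 406.3, 242.2 and 130.9 CPM in Input. Their part was not tested. Htr6 had between 0.207 and 1.36 CPM in IP and between 0.307 and 0.772 CPM in Input (edgeR adjusted p = 0.869). Htr2b and Htr3b were too low to be tested, with 3 and 5 reads over the IP libraries and 98 and 11 over the Input libraries.

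**Figure D4:**
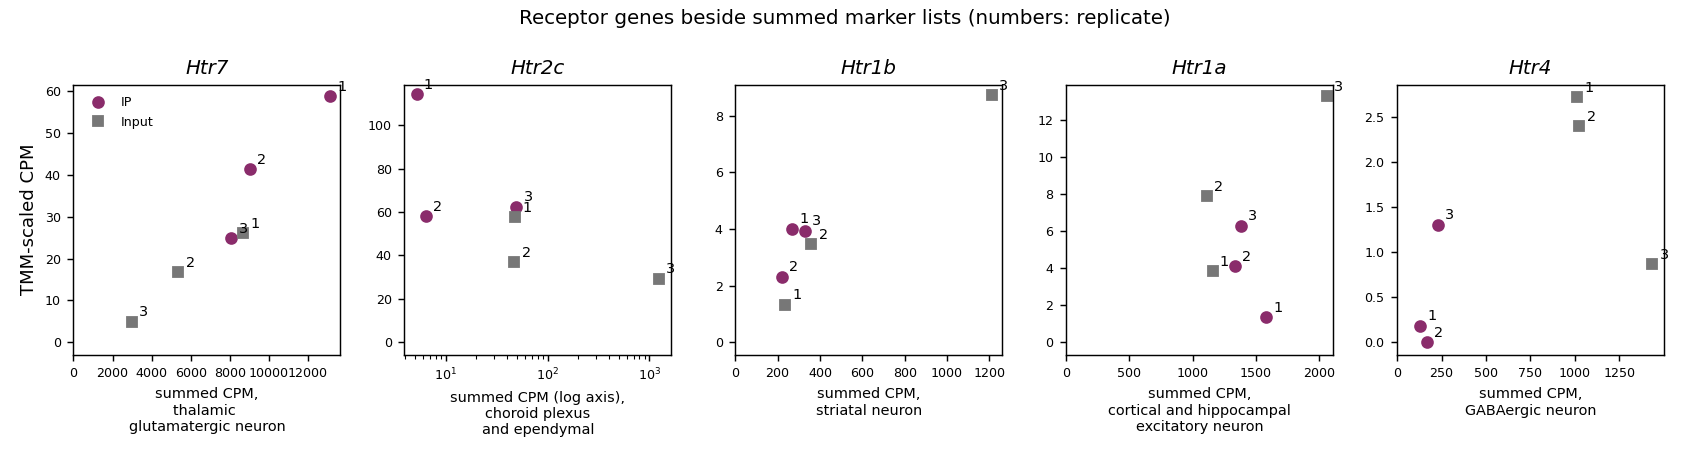
CPM of 5 receptor genes against the summed CPM of a marker list in the same library, for IP (circles) and Input (squares), with replicate numbers. The choroid plexus axis is logarithmic. Htr7 and the thalamic list are highest in replicate 1 and lowest in replicate 3 of both groups, and Input replicate 3 stands to the right for the choroid plexus and striatal lists. The order of the thalamic list in IP rests on Slc17a6.

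In 4 of the 10 receptor genes, Htr1a, Htr1d, Htr2a and Htr7, the same replicate number was highest and the same lowest in both groups, against 24.8% of all tested genes, and nothing is read from a count of this size. Htr7 had replicate 1 highest in both groups, and the other 3 had replicate 3 highest. The genes with the most similar profile over the 6 libraries were named by the smallest root-mean-square difference of centred log2(CPM + 0.5) values, among genes that averaged 5 CPM or more. For Htr1d these were Aldh3b2 and Pcsk4, at 0.059 and 0.12. For Htr2c they were Susd4 and Clptm1l, at 0.047 and 0.080, for Htr5a B3galt1 and Abhd13, at 0.075 and 0.079, and for Htr7 Maob and Ier3, at 0.14 and 0.18. For Htr2a they were Akap7 and Fam57a, at 0.076 and 0.081, for Htr1a Mtg2 and Gps2, at 0.21 and 0.29, and for Htr1b Pars2 and Snhg6, at 0.12 and 0.21. Htr1f, Htr3a and Htr4 had too few reads for such a profile to be read. With 6 libraries in 3 pairs such likeness is a description only.

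The genes around the receptors were read from 5 lists with 54 genes, of which 52 were tested. Of these 11 were called higher in IP, which is 21.2%, against 9.60% of all tested genes, and 3 were called lower, which is 5.77%, against 15.6%. With the replicate block 17 were higher and 6 lower, which is 32.7% and 11.5%, against 15.9% and 19.2% of all tested genes.

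Of 8 genes of serotonin synthesis, transport and breakdown 6 were tested, and 1 passed, lower in IP, a direction called for 15.6% of all tested genes. Tph2 and Slc6a4, the synthetic enzyme and the transporter of raphe neurons, had 3 and 0 reads over the IP libraries and 63 and 11 over the Input libraries. The Input reads of Tph2 were 0, 17 and 46 in replicates 1, 2 and 3, and all 11 of Slc6a4 were in Input replicate 3. Ddc, which makes serotonin from its precursor, fell by 1.84 ± 0.49 on the log2 scale (edgeR adjusted p = 0.0258). Maob, a monoamine-degrading enzyme, averaged 87.5 ± 34.2 CPM in IP, against 34.6 ± 21.6 CPM in Input (SD, n = 3 each). It missed the threshold on group alone, at log2 1.34 (edgeR adjusted p = 0.0922), and passed with the block, at 1.5 (edgeR adjusted p = 0.000456).

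Of 9 genes of the Gi/o arm 4 passed, each of them higher in IP, a direction called for 9.60% of all tested genes. Kcnj5, a subunit of the potassium channels that Gi/o receptors open, averaged 43.7 ± 17.4 CPM in IP and 14.5 ± 5.27 CPM in Input, a rise of log2 1.59 ± 0.37 (edgeR adjusted p = 0.0152). The other channel genes of the list, Kcnj3, Kcnj6 and Kcnj9, were not called, at log2 0.38, -0.56 and 0.74 (edgeR adjusted p = 0.444, 0.103 and 0.211). Kcnj6 was lower in IP in each pair, and Kcnj9 passed with the block (edgeR adjusted p = 0.0136). Gnaz and Gnai2, which encode alpha subunits of this arm, rose by log2 1.30 and 0.82, and Gnao1 rose by 0.52. Of 10 genes of the Gq/11 arm 1 passed, lower in IP, a direction called for 15.6% of all tested genes. It was the phospholipase gene Plcb3, at log2 -2.14 ± 0.63 (edgeR adjusted p = 0.0366). The related Plcb4 had a log2 value of 0.21 ± 0.24 (edgeR adjusted p = 0.553).

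Of 17 genes of the Gs arm 4 were called higher and 1 lower, against 9.60% and 15.6% of all tested genes. Gnas, the Gs alpha subunit, averaged 4359 ± 593 CPM in IP and 2085 ± 175 CPM in Input, a rise of log2 1.06 ± 0.17 (edgeR adjusted p = 0.00344). The protein kinase A genes Prkaca, Prkar1b and Prkacb rose too, Prkar1b and Prkacb by log2 0.97 and 0.56. Prkaca averaged 539 ± 76.4 CPM in IP, against 268 ± 99.6 CPM in Input. Rapgef4, which encodes a cyclic AMP-activated exchange factor, fell by 1.55 ± 0.21 on the log2 scale (edgeR adjusted p = 0.00160). The pacemaker channel genes Hcn2 and Hcn4 had log2 values of 0.09 and 0.37 (edgeR adjusted p = 0.796 and 0.536). Hcn3, of the same family, passed with the block (edgeR adjusted p = 0.0100) and missed the threshold without it, at log2 1.23 (edgeR adjusted p = 0.0744).

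Of 10 receptor partners and regulators 3 passed, each of them higher in IP, a direction called for 9.60% of all tested genes. S100a10, whose protein binds the Htr1b and Htr4 receptors, averaged 21.7 ± 1.61 CPM in IP and 6.81 ± 1.32 CPM in Input, a rise of log2 1.67 ± 0.27 (edgeR adjusted p = 0.00354). Adrbk1, the receptor kinase gene now named Grk2, rose by log2 1.29, and Adar, an editing enzyme, by 0.70. Adarb1, the other editing enzyme of the list, stood at log2 0.27 ± 0.25 (edgeR adjusted p = 0.477).

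**Figure D5:**
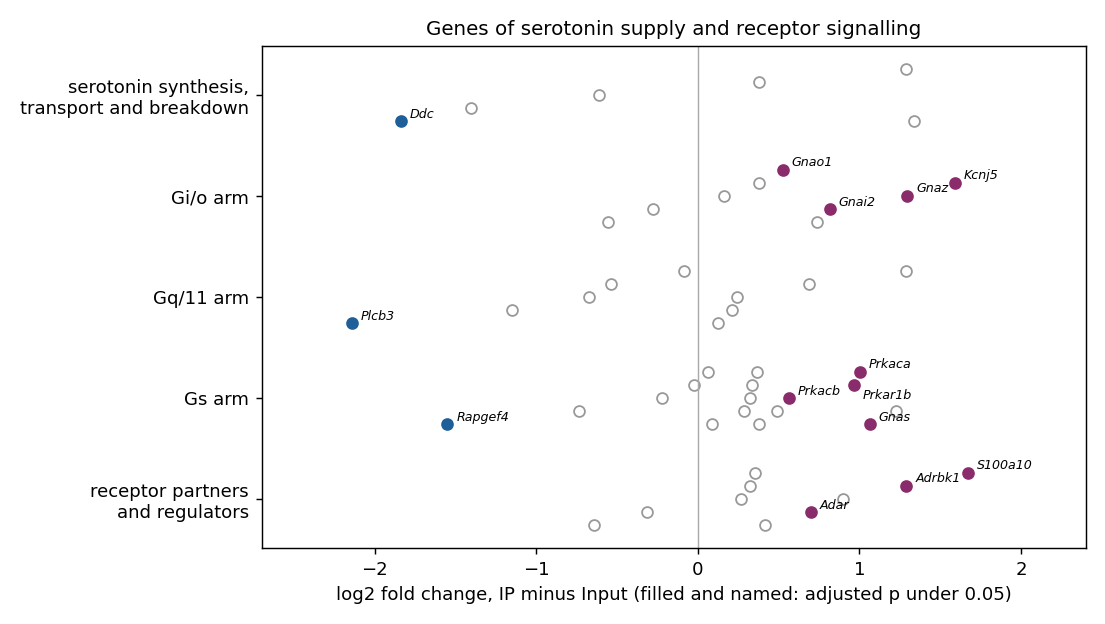
Log2 fold change of IP minus Input for the tested genes of 5 lists around the receptors, from edgeR on group alone. Filled points passed an adjusted p of 0.05 and carry their gene name, with 11 on the side higher in IP and 3 on the lower side.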

How the data were processed

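RNA from 3 IP and 3 Input libraries of mouse thalamus was sequenced, and groups and replicate numbers come from the sample titles. The authors deposited whole-number read counts per gene, a table for each of the libraries. STAR 2.0.0e, HTSeq and the build mm10 are named in the submitters' processing notes. The sources used here give no annotation, counting mode or strand setting. Reads that aligned to several places fell outside the gene counts and made up 40.8% of records in IP and 25.8% in Input on average. The longest exact run shared by transcripts of 2 receptor genes was 26 bases (Htr2a and Htr2c). The labels give ribosomal-bound RNA for every library, and Input was read as the unpurified tissue RNA.

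Rows that name no gene were left out. A filter on low counts (filterByExpr, by group) and TMM scaling preceded a two-sided test by the quasi-likelihood method of edgeR 4.0.16 (R 4.3.3) on group, with Benjamini-Hochberg adjustment over all tested genes and a threshold of 0.05. SE and 95% intervals belong to log2 fold changes, taken as IP minus Input. Pair ratios are ratios of TMM-scaled CPM, given as folds unless log2 is stated. The pairing rests on the numbers in the titles and on a check of deviations from the group means, which correlated over 16496 genes at 0.271 in pair 1, 0.113 in pair 2 and 0.141 in pair 3, each over 0.1. The numbers were therefore taken to pair the libraries. Per the labels, both libraries of a pair also share a sequencing lane tag (3, 8 and 4 for pairs 1, 2 and 3), so replicate and lane cannot be told apart in the block. The labels state no paired test, so results lead with the unblocked values and add blocked ones. DESeq2 1.42.0 and limma 3.58.1 (voom) were alternatives.

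The receptor genes and lists were chosen with earlier results of these data known. Named were all receptor genes, up to 3 called genes per direction of each list around the receptors, and the 2 genes most like each receptor gene. Gnao1, Prkacb, Plcb4, Maob, Adarb1, Tph2, Slc6a4, Hcn2, Hcn3, Hcn4, Kcnj3, Kcnj6 and Kcnj9 were added after their values were seen.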

Additional observations from a re-analysis of the deposited data

How the results depend on the processing

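Of the 10 receptor genes, 1 was called higher without the replicate block and 3 with it. The count was 3 by DESeq2, 2 with no filter on low counts, where Htr2c joined Htr1d, 3 and 3 with the block in DESeq2 and limma-voom, and 3, 2 and 3 with the block without replicate 1, 2 and 3. The count called lower was 0, against 1 with the block, 2 and 1 with it in DESeq2 and limma-voom, and 2 with it without replicate 3. Without libraries and without the block, the counts lay between 0 and 3 higher and between 0 and 1 lower. Htr4 was among the receptor genes called lower wherever that count was 2, and was the 1 called lower without the block. Nothing is read from these Htr4 calls, because it passed the filter on low counts through its Input libraries. Genes around the receptors called higher numbered 11, against 17 with the block, 18 and 19 with it in DESeq2 and limma-voom, 20 and 18 with it without replicates 1 and 3, and between 0 and 14 without libraries. Those called lower numbered 3, against 5 by DESeq2, 6 with the block, 8 and 7 with it in DESeq2 and limma-voom, 5, 5 and 6 with it without replicates 1, 2 and 3, and between 1 and 4 without libraries. Over all genes 1583 were higher, against 2624 with the block, 3025 and 2878 with it in DESeq2 and limma-voom, 3026 with it without replicate 3, and between 83 and 1640 without libraries. Those lower numbered 2566, and between 651 and 2598 without libraries. The lowest counts came without both libraries of replicate 2. The cause of these shifts was not tested. Signs changed only for values that were not called. Htr5a was -0.013 with library totals, -0.011 with a minimum mean of 1 CPM, -0.052 with upper-quartile factors, -0.050 with the block without replicate 2, and between -0.14 and 0.34 without libraries. Htr6 was -0.089 by limma-voom, -0.087 with the block, -0.10 with it in DESeq2, -0.78 with it without replicate 1, and between -0.85 and 0.89 without libraries. Htr1b was 0.20 and 0.51 with the block without replicates 2 and 3, and between -0.96 and 0.53 without libraries. Htr1f was 0.36 with the block without replicate 1, and between -1.61 and 0.22 without libraries. Htr1a, Htr1d, Htr2a, Htr2c, Htr3a, Htr4 and Htr7 had the same sign under each of the alternatives run. Scaling by library totals, RLE or upper-quartile factors moved the median of all genes by under 0.1 (log2). The fits with the block in DESeq2, in limma-voom or without a replicate number were chosen after seeing the data. Htr1f, Htr3a and Htr4 are limited by their read counts.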

Other observations

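Htr1b and its antisense partner D430036J16Rik had closely similar profiles. The antisense gene had 4.95, 3.14 and 3.59 CPM in IP and 1.70, 3.34 and 6.47 CPM in Input, and the ratio of Htr1b to antisense reads was between 0.737 and 1.10 in IP libraries and between 0.782 and 1.35 in Input libraries. Whether reads of the pair were separated by strand was not tested.

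Within the Gi/o-coupled Htr1 family, the ratio of Htr1d to Htr1b reads was 1.74, 3.65 and 2.21 in IP and 1.25, 0.562 and 0.375 in Input, with no overlap. Within the Gq/11-coupled pair, the ratio of Htr2c to Htr2a reads was 51.7, 30.5 and 23.4 in IP and 19.0, 14.0 and 7.17 in Input, also with no overlap. These ratios compare the groups and, with no correction for length, not the levels of the genes. They were chosen after their values were seen and carry no test.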
